A study of Homo sapiens with 9 samples.

Results

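The intestinal lineage and differentiation markers described here are 10 genes: the transcription factors CDX1, CDX2 and HNF4A, the brush border genes VIL1 and SI, the fatty acid carrier FABP1, the surface and cytoskeletal genes KRT20, CDH17 and LGALS4, and the goblet cell mucin MUC2. They were chosen by name, and each gene was represented by its brightest row over 9 arrays. A row naming the gene alone was found for 8 of the 10, out of 17958 genes in all. The only row naming FABP1 also names another gene and no row is named for HNF4A here, so neither was given a value.

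Expression was measured in HCT 116, an epithelial line from a human colorectal cancer, 24 hours after transient transfection. The KL-FL group received a vector for mouse full-length klotho, the KL1 group a vector for the KL1 subdomain of the mouse protein, and the control group the vector pcDNA3. Each group had 3 arrays, and all carried a plasmid and a transfection reagent, either JetPEI or polyethylenimine. The values are log2 expression levels in a population of cells, where fewer cells expressing a gene and less RNA per cell cannot be told apart. The labels do not say whether replicates were separate cultures, so p-values take in only array-to-array spread, and this may be technical. With 3 arrays a group, their number sets the precision.

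CDX1 and CDX2 are homeodomain factors of the intestinal epithelium, and CDX2 sets intestinal identity in the embryo and helps to maintain it in the adult. HNF4A, a nuclear receptor, works at many of the same genes in the adult epithelium. As cells leave the crypt they switch on brush border proteins, digestive enzymes, adhesion proteins and mucins, and colorectal cancers keep these programs to very different degrees. Klotho is a single-pass membrane protein that lets the kidney respond to FGF23, and the series title places it with colorectal cancer and the unfolded protein response. Whether the lineage program of the cells differs between vectors is the comparison made here.

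CDX factors bind an AT-rich core, often written TTTAT, and SI, MUC2 and KRT20 are genes known to respond to them. Their promoters are shown because the factors and these differentiation genes are both among the markers. Whether the factors act on these genes in the cells used here was not measured. The windows run from 250 bases before to 50 after the RefSeq start (GRCh38.p14). They are printed 5′ to 3′ on the gene's strand, with TTTAT or its reverse complement ATAAA in capitals. The SI window is chr3:165078447-165078746 (minus strand), the MUC2 window chr11:1074624-1074923 (plus strand) and the KRT20 window chr17:40885193-40885492 (minus strand).
SI: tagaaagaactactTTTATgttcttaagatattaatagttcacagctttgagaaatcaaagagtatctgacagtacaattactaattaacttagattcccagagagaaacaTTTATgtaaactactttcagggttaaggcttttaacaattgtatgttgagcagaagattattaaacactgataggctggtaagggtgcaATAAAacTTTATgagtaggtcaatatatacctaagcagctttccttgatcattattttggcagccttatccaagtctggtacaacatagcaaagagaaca
MUC2: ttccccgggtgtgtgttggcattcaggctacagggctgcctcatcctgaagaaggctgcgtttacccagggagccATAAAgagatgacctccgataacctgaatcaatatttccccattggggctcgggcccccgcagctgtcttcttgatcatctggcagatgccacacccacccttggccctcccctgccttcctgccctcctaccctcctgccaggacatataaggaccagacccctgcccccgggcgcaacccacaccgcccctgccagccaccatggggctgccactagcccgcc
KRT20: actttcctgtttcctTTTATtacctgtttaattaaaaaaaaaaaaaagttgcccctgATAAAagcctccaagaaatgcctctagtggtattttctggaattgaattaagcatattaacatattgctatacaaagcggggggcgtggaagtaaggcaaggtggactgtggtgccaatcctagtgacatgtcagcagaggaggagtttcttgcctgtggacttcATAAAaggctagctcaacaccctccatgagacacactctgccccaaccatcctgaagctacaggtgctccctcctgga
The core occurs 4 times in the SI window, including a closely spaced pair in opposite orientation, 3 times in the KRT20 window and 1 time in the MUC2 window. Windows of 5 of the 8 measured genes were read, and those of CDX1, VIL1 and CDH17 are not reported here. The window of CDX2 holds 2 matches and that of LGALS4 holds 0. The core is short, and 34.9% of the 35116 promoters of the same length hold at least 1 match. At least 2 are held by 14.4%, at least 3 by 6.18% and at least 4 by 2.67%. A match describes the sequence and not a site in use.

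Before the groups are compared, 2 features of the arrays bear on the values. Over all genes KL-FL replicate 3 stood apart, with a median correlation of 0.997 with the other 8 arrays, followed by KL1 replicate 2 at 0.9979, while the remaining 7 lay between 0.9986 and 0.9989. Many deposited values are also identical, to 5 decimals, on several arrays. In 44.1% of all genes at least 3 arrays carried 1 shared value, and this held for 4 of the 8 markers. MUC2 had the same value on 7 arrays, CDX1 and VIL1 on 5 each and SI on 4, while CDX2 and LGALS4 had 9 distinct values each. In all, 9 genes had 1 value on every array. How the repeated values arose is not known from the labels, and a group with 1 shared value, such as the MUC2 controls, has an SD of 0.

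**Figure D1:**
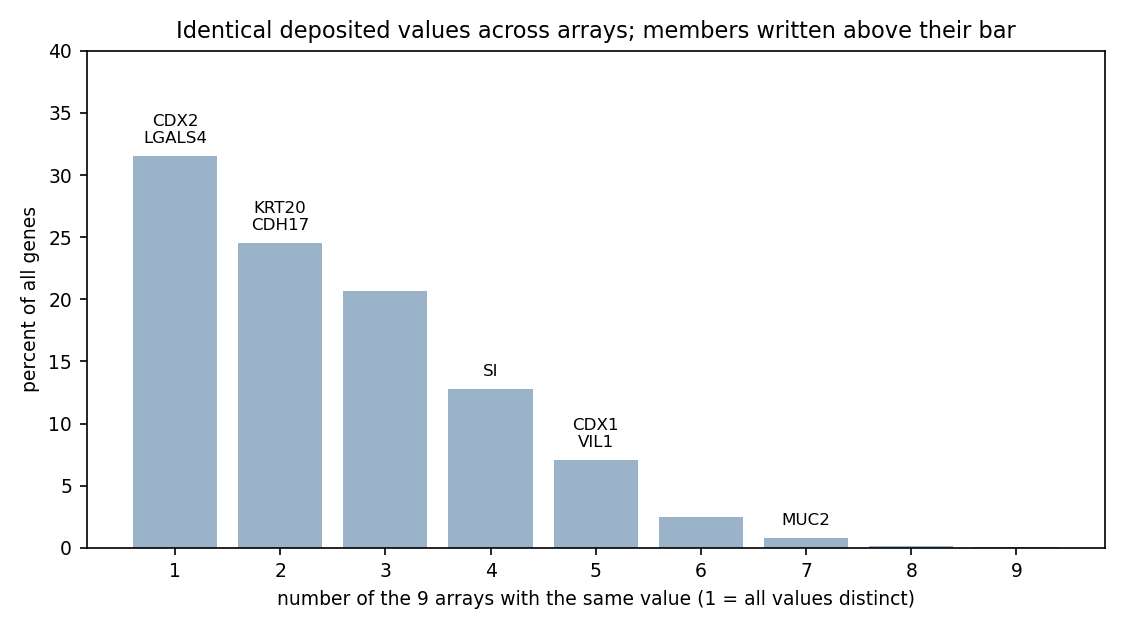
Bars show the percent of all genes (y) by the number of the 9 arrays that carry the same deposited value (x, 1 meaning that all values are distinct). The markers are written above their bar: MUC2 shares 1 value on 7 arrays, and CDX2 and LGALS4 have no repeated value.

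In the control arrays 7 of the 8 markers read below the median of all genes. Over all genes the control means had a lower quartile of 3.73, a median of 5.39 and an upper quartile of 7.06 on the log2 scale. Probe sets differ in brightness for the same amount of RNA, so these quartiles show only where on the scale a reading fell and do not rank genes by RNA. Of 30 general epithelial genes 20 read above the upper quartile and 27 above the median, with a range of 3.24 to 10.7; among them EPCAM read 9.77, KRT18 10.1 and KRT7 5.20. Of 12 leukocyte genes 1 read above the median, CD68 at 6.20, and 6 read below the lower quartile, such as PTPRC at 2.74. Of 13 fibroblast and endothelial genes 2 read above the median, COL1A1 at 5.73 and ACTA2 at 5.71, and 9 below the lower quartile, such as DCN at 2.54. Of 12 hepatic genes 0 read above the median and 11 below the lower quartile. The genes named from these 3 sets and from the epithelial set were picked after their values were seen.

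Of the markers, CDX2 was the 1 that read above the median of all genes, at 6.50 ± 0.047 (SD, n = 3). CDX1 at 4.95 ± 0.044, KRT20 at 4.33 ± 0.066, LGALS4 at 4.27 ± 0.050, MUC2 at 4.25 with no spread and VIL1 at 3.78 ± 0.070 read between the lower quartile and the median (SD, n = 3 each). CDH17 at 2.75 ± 0.024 and SI at 2.62 ± 0.039 read below the lower quartile (SD, n = 3 each). For scale, 25 genes of unrelated tissues such as heart, retina and pituitary gland read between 2.72 and 6.05, with a median of 3.90. CDX2 read above this range, SI below it and the other markers inside it. The table has no detection call, so whether these readings stand for RNA or for background of the array cannot be told.

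No marker passed the test for a difference with either klotho vector. In limma 0 of the 8 reached an adjusted p of 0.05 in any of the 3 comparisons, and 0 had an unadjusted p under 0.05. All genes gave 1 call (0.00557%) for KL-FL minus control, 1 (0.00557%) for KL1 minus control and 0 (0%) for KL-FL minus KL1. The single gene called in both comparisons with control was DDIT3, the stress-induced factor CHOP, which is outside the marker list and was named after its values were seen. It was higher by 0.65 (limma adjusted p = 0.0348) with KL-FL and by 0.78 (limma adjusted p = 0.00687) with KL1. Both calls were lost with the replicate number as a block and with any 1 control array left out. At an unadjusted p under 0.05 the shares of all genes were 7.16%, 5.1% and 5.05% in the same order. The 2 klotho groups were set against the same 3 control arrays, so their differences from control are not independent.

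The markers' log2 differences ran between -0.039 and 0.021 for KL-FL minus control, with a median of -0.014 beside 0.0099 over all genes. They ran between -0.058 and 0.037 for KL1 minus control, with a median of -0.0083 beside 0.0026. Between the vectors, KL-FL minus KL1, they ran between -0.045 and 0.043, with a median of -0.0096 beside 0.0058. In each comparison 3 of the 8 were higher and 5 lower, while of all genes 57.3%, 52.1% and 54.4% were higher. The 95% intervals are per gene, without joint coverage, and take in only array-to-array spread. Over all 8 markers they reached no lower than 0.871-fold and no higher than 1.12-fold for KL-FL minus control. For KL1 minus control the bounds were 0.846-fold and 1.10-fold, and for KL-FL minus KL1 0.907-fold and 1.17-fold. The lower bounds and 2 of the upper ones belonged to CDX2, and the upper bound for KL1 minus control belonged to CDX1. For probe sets near the low end of the scale a change in RNA may be compressed on the array, and these bounds apply to the deposited values.

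**Figure D2:**
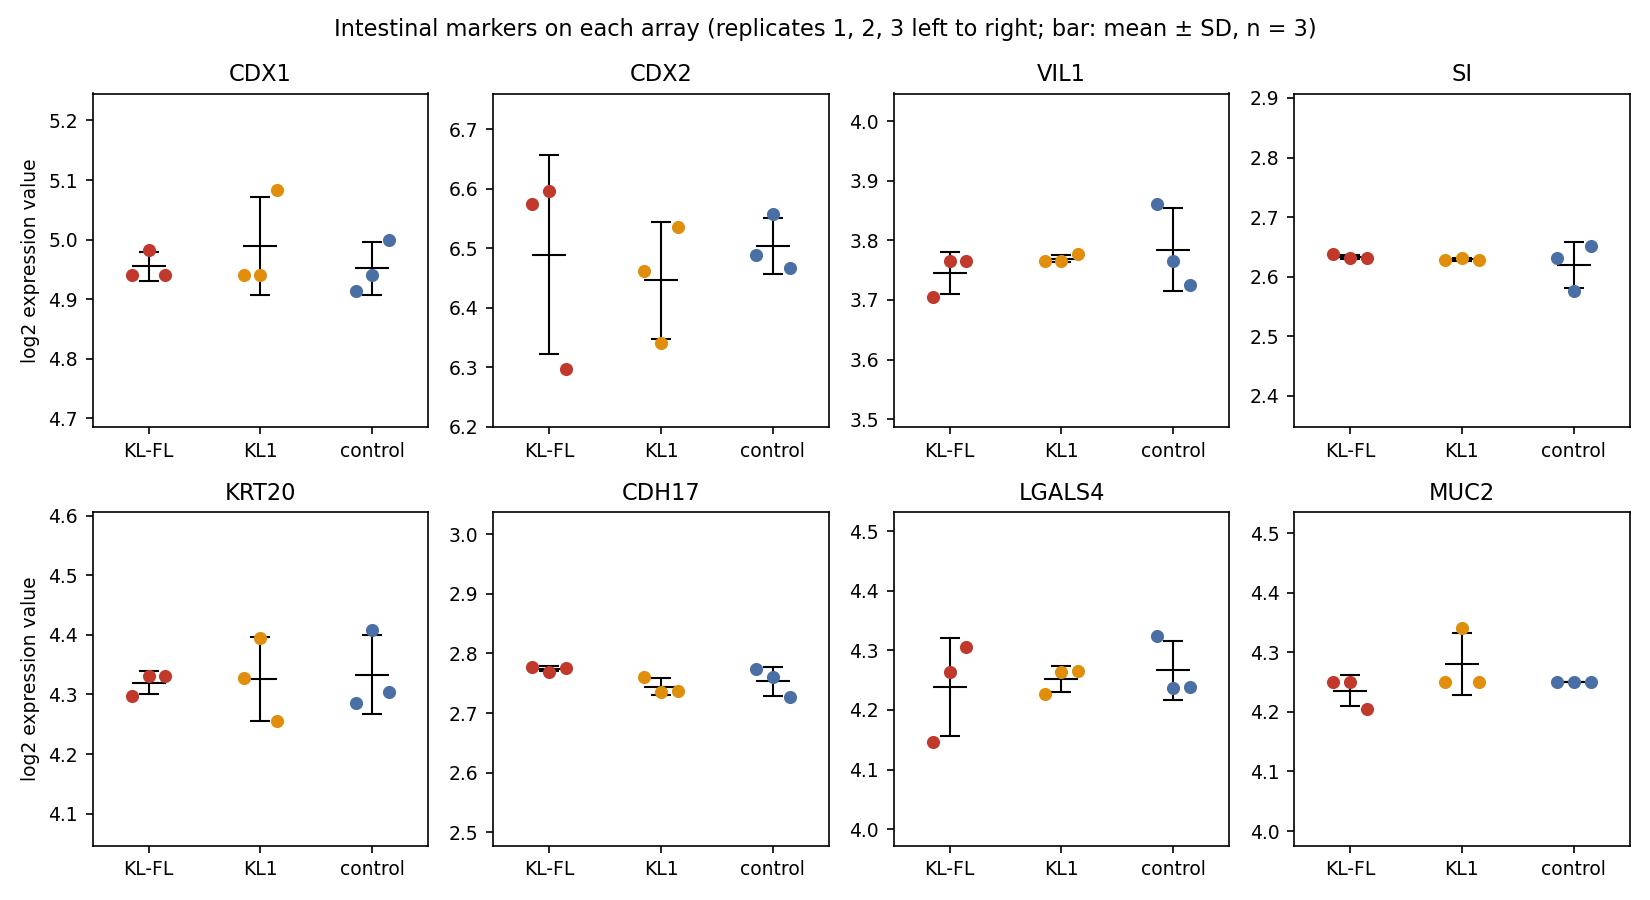
Each panel plots 1 marker's log2 expression value (y) on the 9 arrays, grouped by vector (x), with replicates 1 to 3 left to right and a bar for the mean ± SD (n = 3); all panels span the same number of log2 units. The groups overlap for all 8 markers, except that CDH17 lies higher on the KL-FL than on the KL1 arrays, by 0.030, and CDX2 has its 2 lowest values on KL-FL replicate 3 and KL1 replicate 2.

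Among the transcription factors, CDX2 varied most over the 9 arrays, with an SD of 0.103, against a median SD of 0.064 over all genes. Its log2 values were 6.57, 6.60 and 6.30 on the KL-FL arrays, 6.46, 6.34 and 6.54 on the KL1 arrays, and 6.49, 6.56 and 6.47 on the control arrays. The KL-FL group held 2 arrays above every control and 1 below, the KL1 group held 2 arrays below every control and 1 inside their range, and the groups overlapped. CDX2 averaged 6.49 ± 0.17 with KL-FL, 6.45 ± 0.098 with KL1 and 6.50 ± 0.047 in control (SD, n = 3 each). The log2 difference was -0.015 (SE 0.081, limma adjusted p = 0.969) for KL-FL minus control, -0.058 (SE 0.081, limma adjusted p = 0.951) for KL1 minus control and 0.043 (SE 0.081, limma adjusted p = 0.940) for KL-FL minus KL1.

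The 2 low CDX2 readings, 6.30 and 6.34, came from the 2 arrays that stood apart from the rest, and the other 7 arrays lay between 6.46 and 6.60. Of all genes, 7.19% had both of these arrays below the other 7 and 3.56% had both above; among the 8 markers CDX2 alone had both below and 0 had both above. With both arrays left out, a setting chosen after the data were seen, CDX2 differed by 0.081 (limma adjusted p = 0.590) for KL-FL minus control, by -0.0058 (limma adjusted p = 0.982) for KL1 minus control and by 0.087 (limma adjusted p = 0.872) for KL-FL minus KL1. The part that the make-up of these arrays had in the CDX2 readings was not tested.

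**Figure D3:**
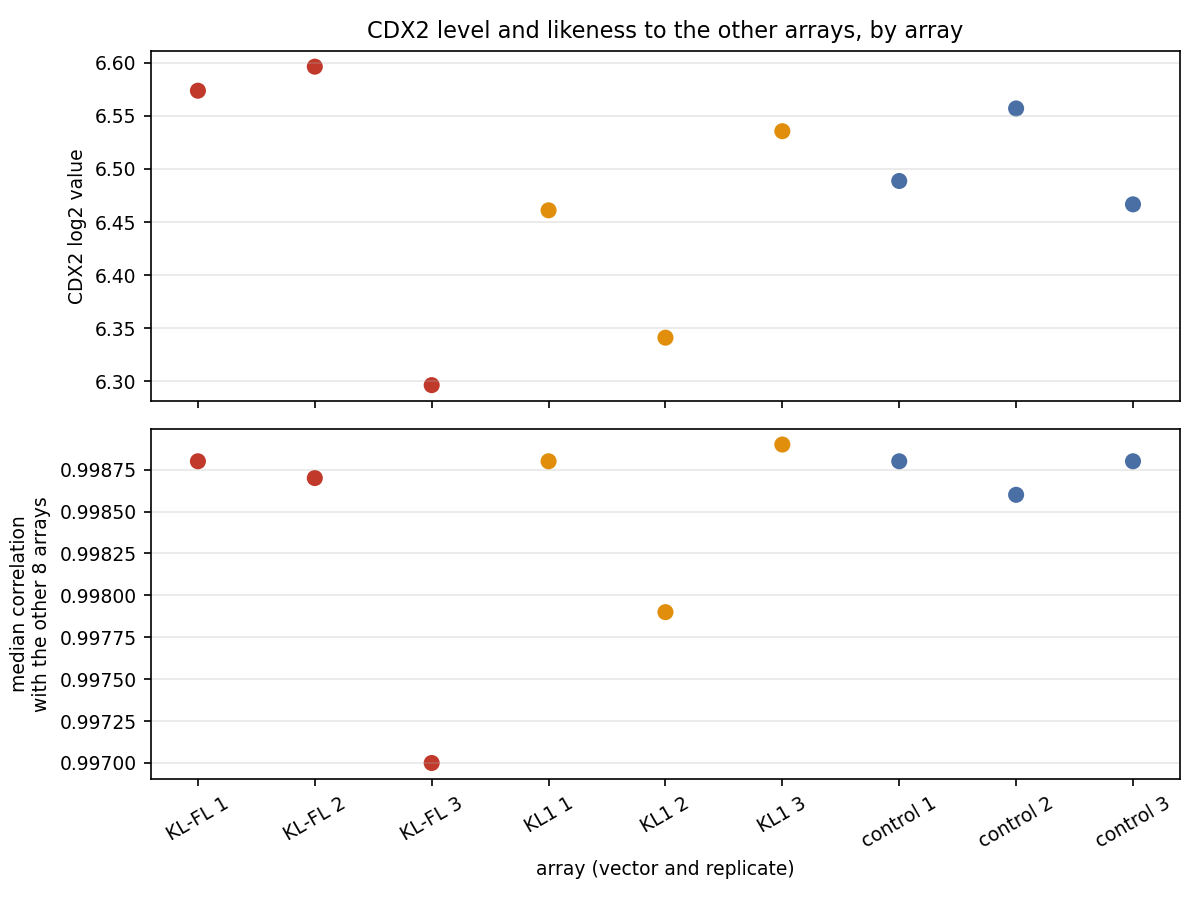
The upper panel plots the CDX2 log2 value and the lower panel each array's median correlation over all genes with the other 8 arrays, both by vector and replicate (x); neither y axis starts at 0. KL-FL replicate 3 (6.30, 0.997) and KL1 replicate 2 (6.34, 0.9979) are lowest in both panels.

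CDX1, the paralog of CDX2 that in the adult gut is found toward the crypt base, had values of 4.94, 4.98 and 4.94 on the KL-FL arrays, 4.94, 4.94 and 5.08 on the KL1 arrays, and 4.91, 4.94 and 5.00 on the control arrays. The value 4.94 was identical on 5 arrays spread over all groups, and the single highest reading was KL1 replicate 3. Its log2 differences were 0.0037 (SE 0.045, limma adjusted p = 0.987) for KL-FL minus control, 0.037 (SE 0.045, limma adjusted p = 0.937) for KL1 minus control and -0.034 (SE 0.045, limma adjusted p = 0.909) for KL-FL minus KL1. The first turns negative when arrays are median-centred, at -0.030, or quantile normalized, at -0.036. Without KL1 replicate 3 the KL1 difference from control was -0.010.

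Neither of the brush border genes passed the test. VIL1 encodes villin, which bundles actin in microvilli. It read 3.71, 3.77 and 3.77 on the KL-FL arrays, 3.77, 3.77 and 3.78 on the KL1 arrays, and 3.86, 3.77 and 3.73 on the control arrays. The control arrays alone covered nearly the whole range of all 9, and 5 arrays shared the value 3.77. VIL1 had the largest difference from control of any marker with KL-FL, at -0.039 (SE 0.039, limma adjusted p = 0.798), which was -0.00011 without control replicate 1; with KL1 it was -0.015 (SE 0.039, limma adjusted p = 0.974).

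SI encodes sucrase-isomaltase, a digestive enzyme of the small intestinal brush border whose RNA also appears in some colorectal cancers. It read 2.64, 2.63 and 2.63 on the KL-FL arrays, 2.63, 2.63 and 2.63 on the KL1 arrays, and 2.63, 2.58 and 2.65 on the control arrays. The control arrays held both the lowest and the highest reading. The differences were 0.013 (SE 0.029, limma adjusted p = 0.919) with KL-FL and 0.0091 (SE 0.029, limma adjusted p = 0.980) with KL1; the KL-FL difference turns negative on median-centred arrays, at -0.020, and under quantile normalization, at -0.0035. Of the printed promoter windows that of SI holds the most TTTAT matches, and SI read below the lower quartile of all genes in control. No relation between matches and readings was tested, and readings of different probe sets do not rank genes by RNA.

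KRT20 is the keratin of differentiated colonocytes and a common stain for colorectal origin. It read 4.30, 4.33 and 4.33 on the KL-FL arrays, 4.33, 4.40 and 4.25 on the KL1 arrays, and 4.29, 4.41 and 4.30 on the control arrays. The control and KL1 readings each spanned more than the gap between any 2 group means. Its differences from control were -0.013 (SE 0.045, limma adjusted p = 0.951) with KL-FL and -0.0074 (SE 0.045, limma adjusted p = 0.989) with KL1.

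CDH17, the liver-intestine cadherin that joins enterocytes, read 2.78, 2.77 and 2.78 on the KL-FL arrays, 2.76, 2.74 and 2.74 on the KL1 arrays, and 2.77, 2.76 and 2.73 on the control arrays. It was the 1 marker of 8 with a comparison in which the groups did not overlap: all KL-FL arrays lay above all KL1 arrays, which held in 1 direction or the other for 6.88% of all genes. The KL-FL minus KL1 difference was 0.030 (SE 0.027, limma adjusted p = 0.870), or 1.02-fold. Against control 0 of the 8 markers were free of overlap with KL-FL and 0 with KL1, where 10.4% and 9.47% of all genes were. CDH17 differed from control by 0.021 (SE 0.027, limma adjusted p = 0.852) with KL-FL, a sign that turns on median-centred arrays (-0.013), and by -0.0093 (SE 0.027, limma adjusted p = 0.976) with KL1.

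LGALS4 encodes galectin-4, a lectin of the gut epithelium that takes part in apical sorting. It read 4.15, 4.26 and 4.31 on the KL-FL arrays, 4.23, 4.26 and 4.27 on the KL1 arrays, and 4.32, 4.24 and 4.24 on the control arrays. The lowest reading was KL-FL replicate 1 and the highest control replicate 1, and the groups overlapped. The differences from control were -0.028 (SE 0.046, limma adjusted p = 0.886) with KL-FL and -0.015 (SE 0.046, limma adjusted p = 0.977) with KL1, and the first was 0.018 without KL-FL replicate 1.

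MUC2, the gel-forming mucin that goblet cells secrete, read 4.25, 4.25 and 4.21 on the KL-FL arrays, 4.25, 4.34 and 4.25 on the KL1 arrays, and 4.25 on each of the 3 control arrays. The 2 departures from the shared value were on KL-FL replicate 3, downward, and on KL1 replicate 2, upward, the same arrays that stood apart over all genes. Its differences from control, -0.015 (SE 0.034, limma adjusted p = 0.922) with KL-FL and 0.030 (SE 0.034, limma adjusted p = 0.935) with KL1, were therefore each set by 1 array and were 0 without it. The KL-FL minus KL1 difference of -0.045 (SE 0.034, limma adjusted p = 0.855) was 0 with both arrays left out. The share of all genes that depart in opposite directions on these 2 arrays was not counted.

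**Figure D4:**
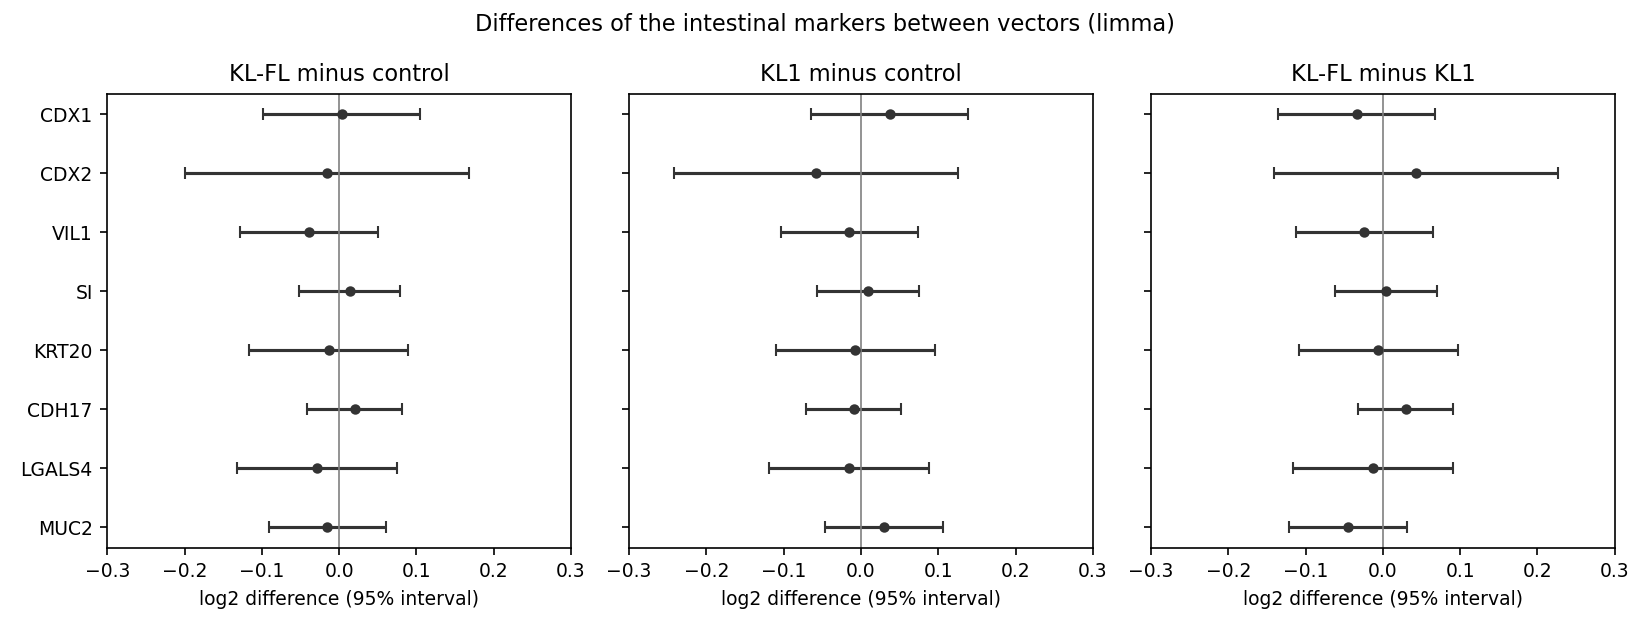
Points are the log2 differences (x) of the 8 markers (y) and bars their 95% intervals from limma, in the 3 comparisons. Every interval crosses 0, and CDX2 has the widest, from -0.20 to 0.17 for KL-FL minus control.

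No pair of markers passed a test of correlation after adjustment. Of 28 pairs, VIL1 and LGALS4 had the highest correlation over 9 arrays, with Pearson's r = 0.81 (exact permutation p = 0.0172, adjusted 0.481) and Spearman's rho = 0.75 (exact permutation p = 0.0218, adjusted 0.611). Both read highest on control replicate 1 and lowest on KL-FL replicate 1, the 2 arrays farthest from the VIL1 median, and r was 0.32 without them. With each group's mean taken out, r over the 9 arrays was 0.80. The lowest was KRT20 with SI, with r = -0.60 (exact permutation p = 0.0915, adjusted 0.854) and rho = -0.22 (exact permutation p = 0.568, adjusted 1), and r was -0.34 without the 2 arrays farthest from the KRT20 median. CDX1 and CDX2 had r = 0.28 (exact permutation p = 0.473, adjusted 1) and rho = 0.24 (exact permutation p = 0.557, adjusted 1), and r = 0.33 without 2 arrays. After adjustment over the 28 pairs 0 passed in these two-sided tests, and 1 had an unadjusted p of r under 0.05.

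The genes whose values followed a marker most closely are given for the 2 markers without repeated values. Over 9 arrays CDX2 was most like SRRM1, a splicing coactivator (r = 0.96), and CYP4F2, a fatty acid hydroxylase (r = 0.96). LGALS4 was most like KRT15, a basal keratin (r = 0.94), and COMP, a cartilage matrix protein (r = 0.93). Such values are ordinary here: the median over all genes of the highest r with any other gene was 0.969, so CDX2 at 0.962 and LGALS4 at 0.938 lay below it.

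Beyond the markers, 193 further genes of 7 intestinal and epithelial lists were followed, of which 176 were measured. None passed in limma in any comparison. For KL-FL minus control 92 were higher and 84 lower, with a median log2 difference of 0.0037, and 7 (3.98%) had an unadjusted p under 0.05, against 7.16% of all genes. For KL1 minus control 91 were higher and 85 lower, with a median of 0.0049 and 5 (2.84%) at that p, against 5.1%. For KL-FL minus KL1 87 were higher and 89 lower, with a median of -0.00044 and 6 (3.41%) at that p, against 5.05%. Groups did not overlap for 10 (5.68%), 15 (8.52%) and 12 (6.82%) of the 176 genes in the same order. Of all genes, 10.4%, 9.47% and 6.88% had groups that did not overlap, so separations were not more frequent over the 176 genes together. By list, KL1 minus control gave 3 of 22 transcription factors, 1 of 28 brush border and 2 of 31 absorptive genes. It also gave 5 of 28 goblet, 4 of 21 enteroendocrine and Paneth, 0 of 17 crypt and 0 of 30 general epithelial genes. In this order KL-FL minus control gave 2, 1, 2, 0, 3, 1 and 1. KL-FL minus KL1 gave 1, 2, 2, 3, 2, 1 and 1. No list was tested for this, and the genes named below were picked by p, so the pooled share does not describe them. All list genes named below stood nearest the threshold in their list by unadjusted p, and limma adjusted p was at least 0.550 for KL-FL minus control, 0.927 for KL1 minus control and 0.855 for KL-FL minus KL1.

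Of 22 other intestinal transcription factors, 12 were higher and 10 lower with KL-FL and likewise 12 and 10 with KL1. FOXA1, a pioneer factor of endoderm, read 5.38 ± 0.093 with KL-FL and 5.41 ± 0.034 with KL1, against 5.49 ± 0.019 in control (SD, n = 3 each), with all arrays of both klotho groups below all controls. The differences were -0.10 (SE 0.046) with KL-FL and -0.075 (SE 0.046) with KL1. SOX9, a crypt progenitor factor, differed by -0.075 (SE 0.050) with KL1. PPARA differed by 0.094 (SE 0.063) for KL-FL minus control and by 0.12 (SE 0.063) for KL-FL minus KL1, where GATA5 differed by 0.068 (SE 0.034).

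Of 28 brush border and microvillus genes, 19 were higher and 9 lower with KL-FL, and 17 higher and 11 lower with KL1. NHERF1, a scaffold beneath the apical membrane, read 8.66 ± 0.094 with KL-FL and 8.74 ± 0.016 with KL1, against 8.86 ± 0.066 in control (SD, n = 3 each), and all 6 klotho arrays lay below all 3 controls. It differed by -0.20 (SE 0.051) with KL-FL, or 0.868-fold, and by -0.12 (SE 0.051) with KL1. TM4SF5 differed by 0.22 (SE 0.10) with KL-FL and overlapped control, and ALPI, intestinal alkaline phosphatase, by 0.11 (SE 0.049) with KL1. Between KL-FL and KL1 the smallest p-values were those of the brush border myosin MYO1A (-0.11, SE 0.052) and the protocadherin CDHR2 (0.081, SE 0.040).

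Of 31 absorptive colonocyte and enterocyte genes, 15 were higher and 16 lower with KL-FL, and 18 higher and 13 lower with KL1. GUCA2B, the hormone uroguanylin, read 4.77 ± 0.041 with KL-FL and 4.72 ± 0.0050 with KL1, against 4.63 ± 0.032 in control (SD, n = 3 each), with all 6 klotho arrays above the controls. Its differences were 0.14 (SE 0.032, limma adjusted p = 0.550) with KL-FL, or 1.10-fold, and 0.097 (SE 0.032, limma adjusted p = 0.927) with KL1. GUCA2A, the related guanylin, differed by 0.11 (SE 0.067) with KL1, and the creatine kinase CKB by -0.25 (SE 0.11) with KL-FL, both with overlapping groups. Between the vectors CA4 differed by 0.092 (SE 0.039) and CEACAM7 by -0.075 (SE 0.039).

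Of 28 goblet and secretory genes, 15 were higher and 13 lower with KL-FL, and 12 higher and 16 lower with KL1. With KL-FL, BEST2 differed by -0.096 (SE 0.039) and the goblet cell factor FOXA3 by 0.11 (SE 0.050). With KL1, the trefoil peptide TFF1 read 4.05 ± 0.083 against 4.18 ± 0.051 in control (SD, n = 3 each), a difference of -0.14 (SE 0.046) with no overlap, and SPINK4 differed by 0.13 (SE 0.062). SPINK4 differed by -0.15 (SE 0.062) for KL-FL minus KL1, and SYTL2 by 0.14 (SE 0.059).

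Of 21 enteroendocrine and Paneth cell genes, 11 were higher and 10 lower with KL-FL, and 12 higher and 9 lower with KL1. INSM1, an endocrine transcription factor, read 5.57 ± 0.051 with KL-FL, against 5.72 ± 0.036 with KL1 and 5.74 ± 0.093 in control (SD, n = 3 each). It differed by -0.17 (SE 0.050) for KL-FL minus control and by -0.15 (SE 0.050) for KL-FL minus KL1. The Paneth defensin DEFA5 differed by 0.17 (SE 0.066) with KL-FL and by 0.15 (SE 0.066) with KL1, above all controls in both, and the hormone precursor GCG by 0.11 (SE 0.038) with KL1. PYY, an L cell hormone, differed by -0.17 (SE 0.080) for KL-FL minus KL1.

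Of 17 crypt stem and progenitor genes, 6 were higher and 11 lower with KL-FL and the counts were 6 and 11 with KL1. LGR5, the stem cell receptor for R-spondins, differed by -0.059 (SE 0.037) for KL1 minus control and by 0.063 (SE 0.037) for KL-FL minus KL1. SMOC2 differed by -0.044 (SE 0.026) and ZNRF3 by 0.060 (SE 0.040) with KL-FL, RGMB by -0.076 (SE 0.043) with KL1, and RNF43 by 0.090 (SE 0.058) for KL-FL minus KL1. Of 30 general epithelial genes, 14 were higher and 16 lower in both comparisons with control. OVOL1, a repressor of mesenchymal genes, read 6.47 ± 0.073 with KL-FL, against 6.60 ± 0.036 with KL1 and 6.60 ± 0.024 in control (SD, n = 3 each), below both on every array. KRT23 differed by -0.13 (SE 0.062) for KL-FL minus control and by -0.12 (SE 0.062) for KL-FL minus KL1, while KRT7 differed by 0.11 (SE 0.053) and KRT19 by -0.12 (SE 0.072) with KL1.

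**Figure D5:**
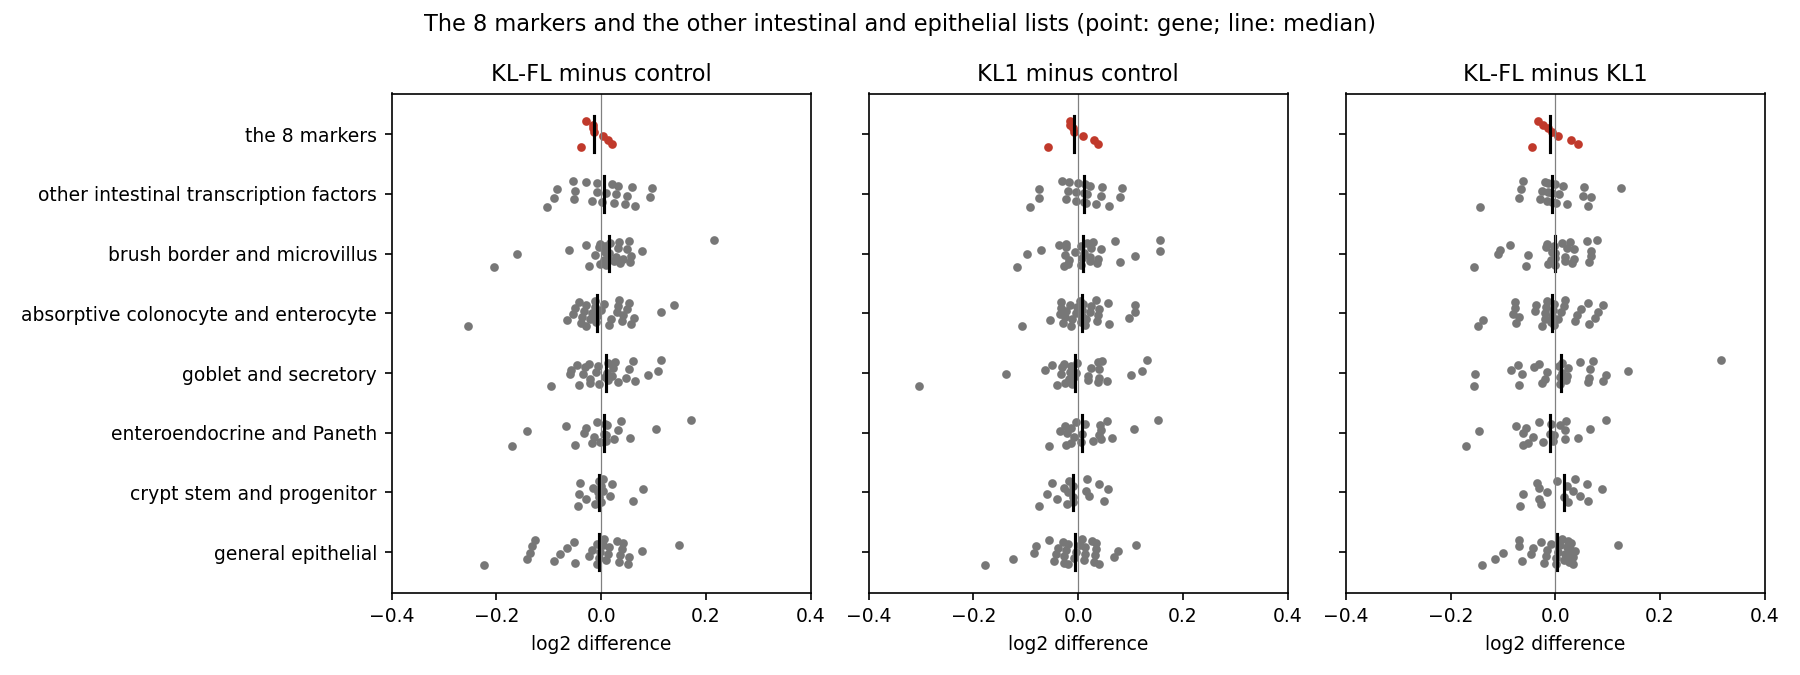
Points are log2 differences (x) of single genes in the 8 markers (top, red) and the 7 other intestinal and epithelial lists (y), with a line at each median, in the 3 comparisons; vertical scatter within a row has no meaning. List medians lie between -0.014 and 0.016, and the largest differences belong to single genes, from -0.30 to 0.32.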

How the data were processed

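Total RNA from HCT 116 cells (input 100 ng) was amplified and labelled with an Affymetrix WT kit and read on 9 arrays, per the labels' protocols. The deposited table gives log2 expression for 33297 probe sets; Partek 6.6 is named per the submitters' processing notes. How the authors corrected background, normalized arrays and summarised probes is not stated in the labels. The values ran from 1.79 to 12.4, from which base 2 was taken. Values were used as deposited.

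Probe sets were named through the platform annotation: 19181 named 1 symbol, 2055 several and 12061 none. Symbols were checked through gene IDs against RefSeq (GRCh38.p14), which changed 0; 38 had no match. The brightest probe set naming a gene alone stood for it, giving 17958 genes; each of the 8 measured markers has 1 such row. The markers and gene lists were chosen with earlier results of these data known.

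All genes were fitted with limma 3.58.1 (R 4.3.3) by lmFit and eBayes, with the 3 groups as the terms of the design, two-sided p-values adjusted by Benjamini-Hochberg over all genes and 95% intervals. The text names all 10 markers, the 2 genes with the smallest p in each intestinal or epithelial list and comparison, the pairs of markers with the highest and lowest correlation, and the genes most like a marker. Alternatives covered scaling, low-value filters, probe set choice, variance models, a replicate block and each array left out. Replicate numbers 1, 2 and 3 are shared by the groups without explanation in the labels. Deviations from group means correlated from 0.113 to 0.322 in same-numbered pairs of KL1 and control, and at most 0.0974 in pairs with KL-FL. Differently numbered arrays were not correlated for comparison, so whether same-numbered arrays are paired cannot be told.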

Additional observations from a re-analysis of the deposited data

How the results depend on the processing

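Under the alternatives tried, 0 markers passed an adjusted p of 0.05 in any comparison; all 8 were tested, except 6 with genes below the 25th percentile left out and 1 (CDX2) with genes below the 50th left out. Over 477 recomputed marker differences the smallest adjusted p was 0.130 and the values lay between -0.10 and 0.14. When replicate number entered as a block, 0 markers passed in any comparison, and the calls over all genes were 0 for KL-FL minus control and 0 for KL1 minus control, where DDIT3 lost its call. The marker differences lie close to 0, and 33 of the 477 changed sign, none larger than 0.081 in size. The 477 include settings that cannot move a marker's difference: filters, probe set choice, the replicate block and variance models other than array weights. The same holds for the 6 arrays compared alone and for leaving out an array of the third group. The share of sign changes is therefore higher among the settings that can move a difference. Sign changes not given in the report are as follows. For KL-FL minus control CDX1 was -0.012 and CDX2 0.060 with array weights. For KL-FL minus KL1 SI was -0.025 on median-centred arrays and -0.0079 under quantile normalization, and KRT20 was 0.023 without both arrays that stood apart; CDX1, SI, CDH17 and CDX2 for KL-FL minus control turned as printed above (-0.030 and -0.036; -0.020 and -0.0035; -0.013; 0.081). With 1 array left out, signs changed for 15 of 24 differences. For KL-FL minus control the ranges were -0.015 to 0.028 for CDX1, -0.069 to 0.081 for CDX2, -0.037 to 0.025 for KRT20, -0.0081 to 0.029 for SI and -0.062 to 0.018 for LGALS4. For KL1 minus control they were -0.010 to 0.061 for CDX1, -0.044 to 0.024 for VIL1, -0.042 to 0.030 for KRT20, -0.013 to 0.025 for SI, -0.023 to 0.00069 for CDH17 and -0.030 to 0.014 for LGALS4. For KL-FL minus KL1 they were -0.057 to 0.014 for CDX1, -0.011 to 0.14 for CDX2, -0.041 to 0.029 for KRT20 and -0.047 to 0.033 for LGALS4. The count over all genes was 0 for both comparisons with control when every probe set or each gene's own variance was used, and 0 for KL-FL minus control with the 6 arrays compared alone. With array weights, which ran from 0.265 for KL-FL replicate 3 to 6.76 for KL-FL replicate 1, it was 523 for KL-FL minus control, 2 for KL1 minus control (DDIT3 and HERPUD1) and 1 for KL-FL minus KL1 (STARD9); each gene's own variance gave 1 for KL-FL minus KL1 (ABCA3), and without both arrays that stood apart KL1 minus control gave 2 (DDIT3 and HERPUD1) and KL-FL minus control 1 (HERPUD1, with DDIT3 no longer called). Leaving out 1 array gave 0 to 1 calls in each comparison with control. For KL-FL minus control DDIT3 kept its call without KL-FL replicate 2 or 3; the call was TOB2 without KL1 replicate 2, and there were 0 without any other array. For KL1 minus control DDIT3 kept its call without any 1 KL-FL array, and there were 0 without any 1 KL1 or control array. These genes were named after their values were seen. The cause of these changes was not tested. The MUC2 control level was 4.26 on median-centred and quantile-normalized arrays. With 3 arrays a group and no detection call, small or below-background changes could not be detected.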

Other observations

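Genes outside the intestinal programs were read for comparison. Against control, 57.3% of all genes were higher with KL-FL and 52.1% with KL1. Medians over all probe sets were 4.72, 4.73 and 4.75 on the KL-FL arrays, 4.71, 4.68 and 4.72 on the KL1 arrays, and 4.70, 4.70 and 4.71 on the control arrays. The part of such shifts in the counts below was not tested. Of 12 measured hepatic genes, 11 read below the lower quartile of all genes in control. Of these 12 genes, 9 were higher with KL-FL and 10 with KL1 than in control, with median log2 differences of 0.030 and 0.026. Of 25 genes of unrelated tissues, 12 were higher with KL-FL and 20 with KL1, with medians of -0.0030 and 0.024. Of 14 gastric and oesophageal genes, some of them (TFF1) also among the goblet genes, 9 and 10 were higher, with medians of 0.022 and 0.030. Of 13 fibroblast and endothelial genes, 9 were higher in each, with medians of 0.011 and 0.0027. Of 12 leukocyte genes, 5 and 9 were higher, with medians of -0.0057 and 0.019. For KL-FL minus KL1, where 54.4% of all genes were higher, 5 hepatic, 8 unrelated, 8 gastric and oesophageal, 10 fibroblast and endothelial and 3 leukocyte genes were higher, with medians of -0.016, -0.040, 0.0016, 0.0062 and -0.027. None of these genes passed in limma over all genes, and the medians of all genes were 0.0099 for KL-FL minus control, 0.0026 for KL1 minus control and 0.0058 for KL-FL minus KL1.

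The mucin MUC12, picked after its values were seen, read 6.85, 6.51 and 7.76 on the KL-FL arrays, 6.59, 6.85 and 6.73 on the KL1 arrays, and 6.94, 6.95 and 7.20 on the control arrays. All 3 KL1 readings lay below all controls, and 9.47% of all genes were free of overlap in that comparison. In the goblet and secretory list, which holds MUC12, limma adjusted p was at least 0.927 for KL1 minus control. The KL-FL readings lay on both sides, and the highest of the 9 was KL-FL replicate 3, which stood apart over all genes.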
